A study of Drosophila melanogaster with 22 samples.

Results

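The proteasome is the barrel-shaped protease that degrades proteins tagged with ubiquitin, and its subunit genes were followed here in the open chromatin of adult Drosophila melanogaster hearts. Members were the protein-coding genes on chromosome arms 2L, 2R, 3L, 3R and X whose symbol begins with Prosalpha or Prosbeta, or with Rpn or Rpt followed by a digit. This gave 48 of 13842 protein-coding genes. They were split by symbol into 32 core subunit genes and 16 copies with a T or R suffix, called testis-type copies below.

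Hearts were profiled by bulk ATAC-seq, in which a transposase inserts adapters into accessible DNA, and each of 22 libraries came with its own list of peaks. Hearts of w1118, a laboratory strain with no transgene named in the labels, were taken at 5 weeks of age (3 libraries) and at 1 week (3 libraries). RNAi against LamC, the A-type lamin, was compared with the attp2 control (4 libraries each). A further pair had RNAi against LamB, the submitters' name for the B-type lamin, and the attp40 control (5 and 3 libraries). All lamin RNAi and attp libraries were from flies aged 1 week. Per the series' design text, Hand-Gal4, a driver active in heart cells, was crossed to the RNAi lines and to both attp controls, so the controls carry the driver too. That text counts 3 LamC and 4 LamB RNAi libraries, whereas 4 and 5 are labelled as such, and none was left out. The sex of the flies and the number of hearts behind a library are not stated. Nor is it stated whether replicate libraries had separate pools of hearts as their source, and the p-values below reflect library-to-library spread that may be technical. The stated purpose was to find accessible regions that change both with age and after loss of either lamin.

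The proteasome consists of a core particle, made of stacked rings of alpha and beta subunits, and a regulatory particle that recognises, unfolds and feeds in substrates. The alpha rings gate the entrance to the barrel, and the beta rings hold the proteolytic sites. In the regulatory particle, the Rpt ATPases and a few Rpn subunits form the base, and the remaining Rpn subunits form the lid. These genes are active in nearly all cells, and muscle depends on them for the turnover of contractile proteins. Flies also carry copies of many subunit genes, several of which are known to be used in the male germ line.

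Accessibility at a gene was scored from the authors' −log10 p of the strongest peak within 500 bp of either end of the gene, since the gene table holds spans without strand. Each list was first limited to its 8491 strongest peaks, the length of the shortest list. The rank of the peak was then scaled so that 1 is the strongest peak of a library and 0 means no peak among those kept. A rank score is relative to the other peaks of the same library, and the reads and the sequencing depth are unknown. In bulk tissue, fewer nuclei of a cell type and a less open site in each nucleus cannot be told apart.

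The labelled tissue was checked against heart markers. Of 12 marker genes, 9 had a peak at an end in every library, among them Hand, Mef2, pnr, mid and H15. The cardiac homeobox gene tin had none in any library, and Doc1 had one in 2 of 22. A peak in every library was found for 75% of the heart markers, 71.9% of the core subunit genes and 39.7% of all protein-coding genes. It was also found for 4 of 6 pericardial nephrocyte, 2 of 7 hemocyte, 2 of 5 fat body and 3 of 14 testis markers. The count of heart markers alone therefore does not tell heart from other tissue. The scores of the knocked-down genes were high in all groups: the LamC gene averaged 0.690 ± 0.097 in its knockdown (SD, n = 4) and 0.783 ± 0.022 in attp2 (n = 4). Lam, the gene called LamB in the labels, averaged 0.763 ± 0.032 (n = 5) after LamB RNAi and 0.789 ± 0.054 (n = 3) in attp40. Openness at a gene's ends is no measure of its transcript, the target of RNAi, and so no check of the knockdown. LamB RNAi replicate 4 stood apart before any comparison. Its peaks had a median width of 326 bp, the lowest of the 22 libraries, and 47.3% of all protein-coding genes had a peak at an end, again the lowest value. Values without it are given for several directions and ranges below, and the other LamB RNAi means and ranges over libraries include it.

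Nearly all core subunit genes were open at an end in these hearts. Between 26 and 30 of the 32 core genes had a peak in a given library, which is 81.2% to 93.8%. The share for all protein-coding genes was 47.3% to 57.0%. Across libraries, 23 core genes (71.9%) had a peak in all 22, against 39.7% of all protein-coding genes. Another 7 had one in some libraries, and 2 had none, Prosalpha1 and Rpn8. The cytosolic ribosomal protein genes, another set of 87 genes that all cells use, had a peak at 71 to 80 members per library. In every library the share of core proteasome genes lay above that of all genes. Many of these peaks had their highest point nearer to a neighbouring gene. Genes whose strongest end peak was highest nearest to their own end made up 25% to 43.8% of core genes per library. The same share was 30.6% to 34.8% for all protein-coding genes and 49.4% to 63.2% for ribosomal protein genes.

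**Figure D1:**
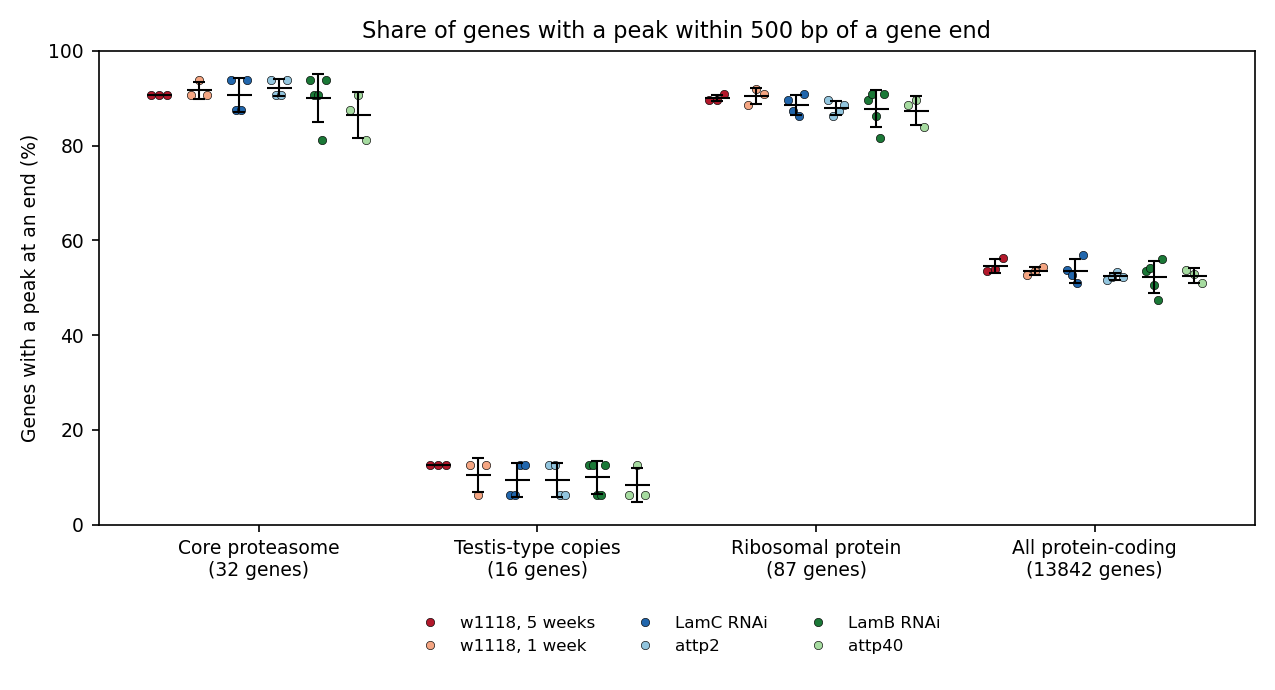
Percent of genes with a peak within 500 bp of a gene end (y axis) for core proteasome genes, testis-type copies, ribosomal protein genes and all protein-coding genes. Points are libraries coloured by group, and bars are the group mean with its SD. Core proteasome and ribosomal protein genes sit at 81.2% to 93.8%, all genes at 47.3% to 57.0%, and testis-type copies at 6.25% or 12.5%.

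Group means of the share of core genes with a peak lay between 86.5% and 92.2%. The share was 90.6% in every 5-week w1118 library and 91.7% ± 1.8 (SD, n = 3) at 1 week. It was 90.6% ± 3.6 (n = 4) after LamC RNAi and 92.2% ± 1.8 (n = 4) in attp2. It was 90.0% ± 5.1 (n = 5) after LamB RNAi and 86.5% ± 4.8 (n = 3) in attp40. Without LamB RNAi replicate 4, the LamB value was 92.2% ± 1.8 (n = 4). With all libraries in, each pair of groups differed by less than the larger SD of the pair.

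The median score over the core genes averaged 0.632 ± 0.039 in 5-week hearts (SD, n = 3) and 0.603 ± 0.050 in 1-week hearts (n = 3). It was 0.577 ± 0.030 (n = 4) after LamC RNAi and 0.568 ± 0.025 (n = 4) in attp2. It was 0.507 ± 0.106 (n = 5) after LamB RNAi, or 0.552 ± 0.041 (n = 4) without replicate 4, and 0.533 ± 0.059 (n = 3) in attp40. Here too the libraries of one group differed among themselves by as much as the groups of a pair did.

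**Figure D2:**
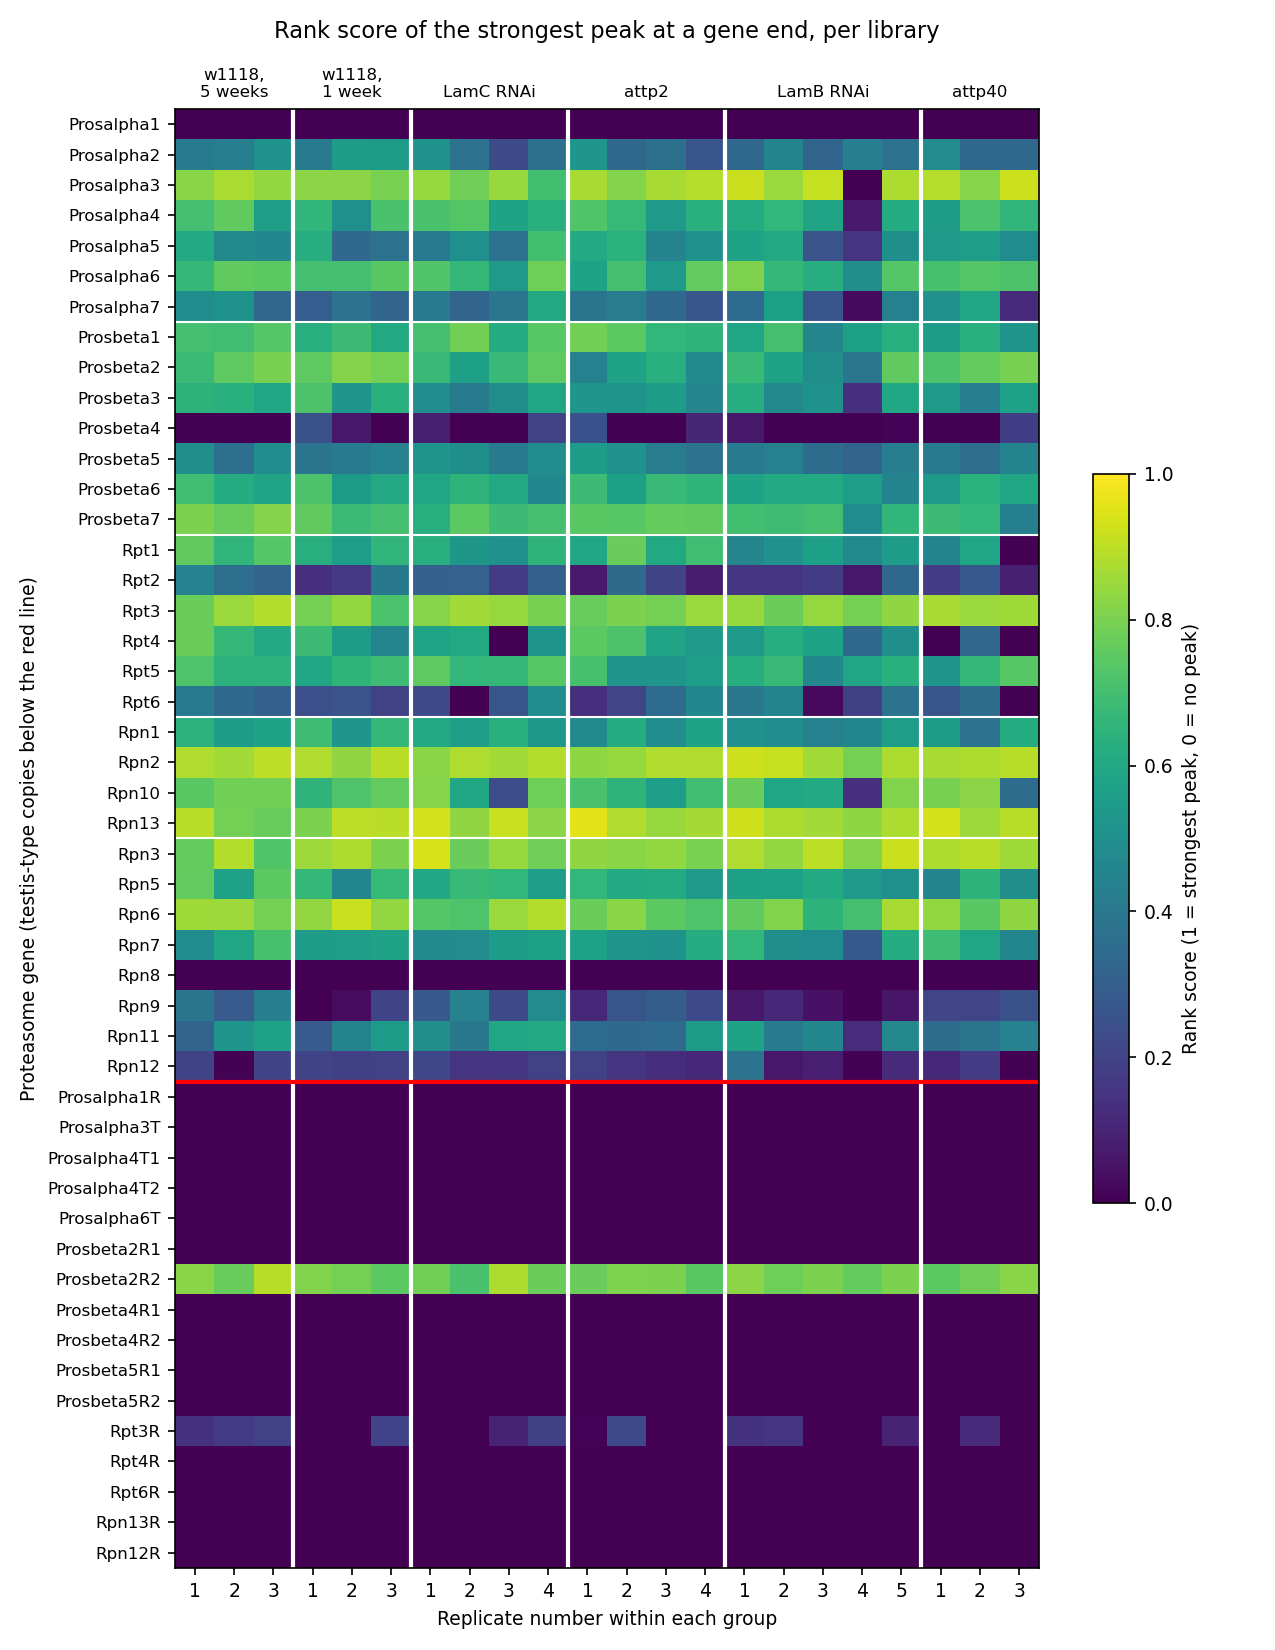
Rank score of the strongest peak at a gene end for all 48 members (rows) in the 22 libraries (columns, by group and replicate). Brighter cells are stronger peaks and the darkest cells have no peak. The rows of Rpn2, Rpn13, Rpn3 and Rpt3 are bright throughout, Prosalpha1 and Rpn8 are dark throughout, and below the red line only Prosbeta2R2 and Rpt3R hold peaks.

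The core genes covered almost the whole range of scores. Rpn13 and Rpn2 had the strongest peaks, with means over the 22 libraries of 0.871 and 0.870, and Prosbeta4 the weakest of those with a peak, with 0.0549. The order of genes was alike between groups. Over the 30 core genes with a peak, Spearman's rho between the mean scores of 2 groups ran from 0.812, between attp2 and attp40, to 0.956, over 15 pairs of groups. These correlations are across genes, which are not independent replicates.

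In the alpha ring, Prosalpha3 scored highest, with a mean of 0.809, and Prosalpha7 lowest, with 0.380, among the 6 genes with a peak. Prosalpha6 and Prosalpha4 followed Prosalpha3 with 0.686 and 0.618, then Prosalpha5 with 0.488 and Prosalpha2 with 0.405. In all of these except Prosalpha3 a peak was present in all 22 libraries. The peak of Prosalpha3 lay near the 500 bp limit. Over the libraries its distance from the gene had a median of 487 bp, and in LamB RNAi replicate 4 it was 535 bp away, so that this library scored 0 although the peak itself had a rank score of 0.797.

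In the beta ring, the 3 genes for the proteolytic subunits were open in all 22 libraries. Prosbeta1, the caspase-like subunit, averaged 0.654 ± 0.086 (SD over 22 libraries), Prosbeta2, the trypsin-like subunit, 0.662 ± 0.126, and Prosbeta5, the chymotrypsin-like subunit, 0.434 ± 0.061. Prosbeta7 had the strongest peak of the ring, with a mean of 0.696, and Prosbeta6 and Prosbeta3 averaged 0.603 and 0.530. Prosbeta4 stood apart, with a peak in only 9 of the 22 limited lists and in 14 of the lists as deposited, and a score of 0.251 in its highest library. The peak that Prosbeta4 had was at the gene itself, with its summit a median of 4 bp from an end.

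Among the 6 Rpt ATPases, which unfold substrates, Rpt3 was the most open and the steadiest, at 0.821 ± 0.041 (SD over 22 libraries). Rpt5 averaged 0.636, Rpt1 0.571 and Rpt4 0.498, while Rpt6 and Rpt2 averaged 0.271 and 0.230. Rpt4 varied more between libraries than any other member, with an SD of 0.231. Rpt4 had no peak in LamC RNAi replicate 3 or in attp40 replicates 1 and 3. Rpt1 lacked a peak in attp40 replicate 3 alone, and Rpt6 in LamC RNAi replicate 2 and attp40 replicate 3. The attp40 replicate 3 list was the shortest deposited and its name bears a date in February, whereas the names of the other attp40 and LamB RNAi lists bear dates in July. What these dates mean is not stated.

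The other base subunits were open in every library. Rpn2 and Rpn1 are the large scaffold proteins of the base, and Rpn13 and Rpn10 bind ubiquitin chains. Rpn2 scored 0.792 to 0.923 with the smallest SD of all members with a peak, 0.031. Rpn13 scored 0.768 to 0.959. Rpn1 averaged 0.551, and Rpn10 averaged 0.655 with a wide range of 0.141, in LamB RNAi replicate 4, to 0.827. Without that library the lowest Rpn10 score was 0.235.

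In the lid, Rpn3 and Rpn6 had the strongest peaks, with means of 0.842 and 0.798. Rpn6 is known as the clamp that holds the regulatory particle to the core particle. Rpn5, Rpn7 and Rpn11, the last being the deubiquitinase that removes ubiquitin chains from substrates, averaged 0.599, 0.548 and 0.437. Rpn9 and Rpn12 were weak, at 0.210 and 0.147, and each lacked a peak in 2 libraries. In the lists as deposited, Rpn9 had a peak in all 22 libraries.

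Most of these peaks were shared with a neighbouring gene. Of the 30 core genes with a peak, 24 (80%) had another gene with an end within 500 bp of the same strongest peak in at least 50% of the libraries with a peak, against 76.0% of the 8588 genes with an end peak in any library. The summit, the position of highest signal, was nearest to the member's own end in most libraries for 10 of 30 (33.3%), against 62.1% of all such genes. For 18 members it was nearest to the end of another gene, and for the remaining members it was tied. The median summit lay 196 bp from the member's own end, and 147 bp from it over all such genes. A score at a shared peak therefore describes a region near the ends of neighbouring genes and cannot be assigned to the member alone. That region was not always between the genes. At Rpn6 and Rpn9 the summit lay inside the member in every library with a peak.

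**Figure D3:**
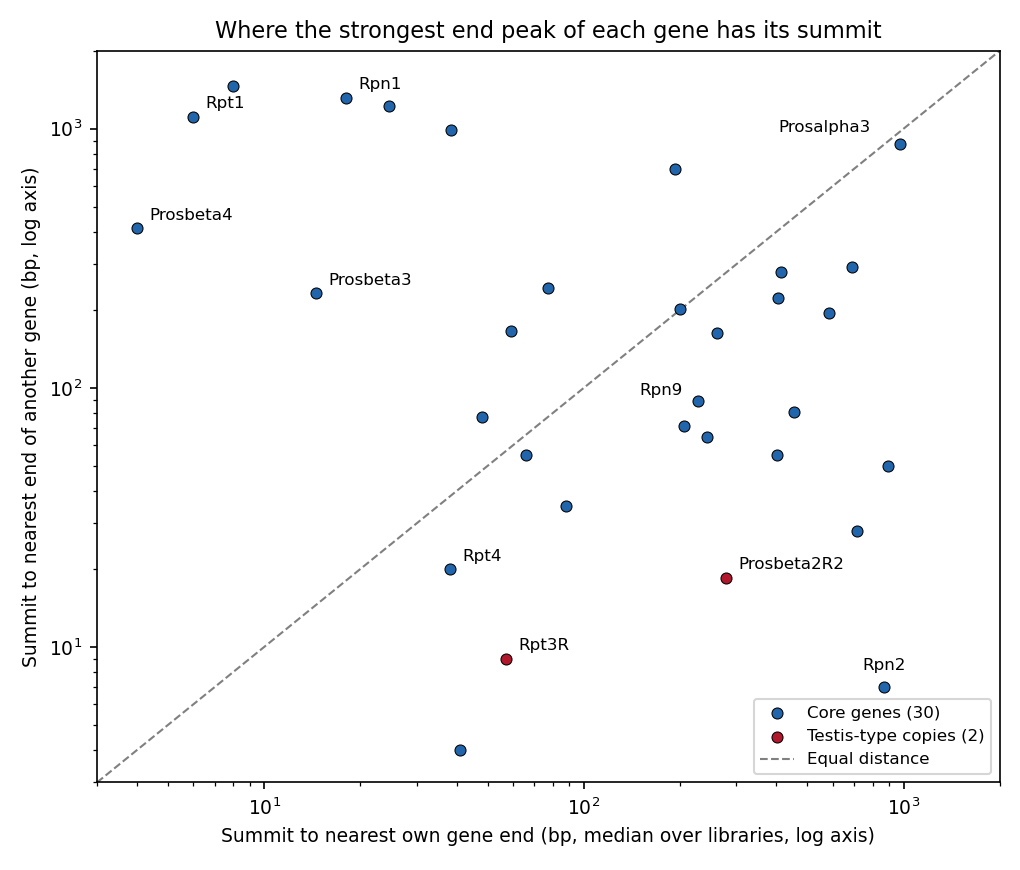
Distance from the peak summit to the nearest end of the member (x axis, bp, log scale) and to the nearest end of another gene (y axis, bp, log scale), as medians over the libraries with a peak. Points below the dashed line are nearer to the other gene. Rpn2 (867 bp and 7 bp) and the testis-type copies Prosbeta2R2 and Rpt3R lie below it, and Rpt1 (6 bp and 1112 bp) and Rpn1 (18 bp and 1318 bp) lie far above it.

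The strongest core peaks were among the shared ones. The Rpn2 summit lay a median of 7 bp from the end of rdog and 867 bp from Rpn2 (3R, 29153524 to 29157255, dm6). The Rpn13 summit lay 55 bp from AGO1, the Argonaute protein of the microRNA pathway, and 401 bp from Rpn13 (2R, 13958545 to 13960404). The Rpt3 summit lay 81 bp from CG11122 and 456 bp from Rpt3. At other genes the ends faced each other closely, so that a peak covered both. The Rpt5 summit was 41 bp from Rpt5 and 4 bp from RanBP3, the Rpt4 summit 38 bp from Rpt4 and 20 bp from mldr, and the Prosbeta1 summit 66 bp from Prosbeta1 and 55 bp from Rrp42, a subunit of the RNA exosome.

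Only 6 core genes had a strongest peak shared with no other gene in that sense: Prosalpha5, Prosbeta7, Rpn1, Rpn11, Rpt1 and Rpt6. In these the summit was nearest to the member in all libraries with a peak. Their mean scores ran from 0.271 for Rpt6 to 0.696 for Prosbeta7. The authors' fold enrichment over local background, as a median over libraries, was 4.69 at Rpt6, 5.53 at Rpn11, 6.82 at Rpn1, 7.51 at Prosalpha5, 7.58 at Rpt1 and 8.38 at Prosbeta7. Over all 30 core genes it ran from 3.61 at Prosbeta4 to 10.5 at Rpn6.

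Rpn8 and Prosalpha1 had no end peak in any library, neither in the limited lists nor in those deposited. Rpn8, the partner of Rpn11 in the lid, spans 4500 bp (2R, 24400028 to 24404527) and overlaps Slik, a protein kinase gene. A peak lay inside its span in all 22 libraries, with rank scores of 0.734 to 0.986 and a median of 0.907. Its edges were at least 1281 bp from either end of Rpn8, so the gene was scored 0. Its summit lay a median of 12.5 bp from the end of Slik. This peak scored 0.921 ± 0.021 in 5-week hearts (SD, n = 3) and 0.916 ± 0.039 in 1-week hearts (n = 3). It scored 0.914 ± 0.036 (n = 4) after LamC RNAi and 0.920 ± 0.049 (n = 4) in attp2. It scored 0.841 ± 0.080 (n = 5) after LamB RNAi, or 0.868 ± 0.061 (n = 4) without replicate 4, and 0.886 ± 0.025 (n = 3) in attp40. These differences were within the spread between libraries, and the peak was not part of the fit.

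Prosalpha1 (2R, 7827303 to 7828678) lies 1734 bp from its copy Prosalpha1R (2R, 7830413 to 7831771). No peak lay in or within 500 bp of either gene, and the nearest was 1479 bp from Prosalpha1 and 4589 bp from Prosalpha1R. The intervening gene CG18853 had no end peak either, while phr, the DNA photolyase gene on the other side of Prosalpha1, had one in 20 of 22 libraries. Prosalpha1 and Prosalpha1R are near-identical copies. The authors' treatment of reads that map to more than 1 place is not stated, and both genes are reported as uncertain.

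The testis-type copies were almost all without a peak. Of the 16 copies, 14 (87.5%) had no peak at an end in any of the 22 libraries, also in the lists as deposited, and none inside the gene body. Among the 14 is Prosalpha1R, reported above as uncertain. The share of all protein-coding genes with no end peak in any library was 38.0%. For these 14 copies the nearest peak lay a median of 4022 bp away at Prosalpha3T to 67447 bp at Prosbeta4R1. For most subunits with a copy, a peak lay at an end of the core gene and none at the copy. Prosalpha3, Prosalpha4, Prosalpha6, Prosbeta2, Prosbeta5, Rpn13, Rpt4 and Rpt6 scored on average 0.271 to 0.871, while Prosalpha3T, Prosalpha4T1, Prosalpha4T2, Prosalpha6T, Prosbeta2R1, Prosbeta5R1, Prosbeta5R2, Rpn13R, Rpt4R and Rpt6R had no peak. Among the core genes just named, the summit was nearest to the member in most libraries only at Rpt6. It was tied at Prosbeta5 (11 of 22 libraries) and nearest to another gene in most libraries at the rest. Their scores therefore cannot be assigned to the core gene alone. Prosbeta4 and Rpn12 were weak and their copies Prosbeta4R1, Prosbeta4R2 and Rpn12R had no peak.

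At the 2 testis-type copies with a peak the summit lay nearer to another gene. The same held in most libraries for 18 of the 30 core genes with a peak. Prosbeta2R2 (3R, 5217751 to 5219528) had one in all 22 libraries, with scores of 0.715 to 0.891, but its summit lay a median of 18.5 bp from the end of cno, the gene of an adherens junction protein, and 278 bp from Prosbeta2R2. No peak overlapped the body of Prosbeta2R2. Rpt3R had one in 13 of 22 libraries, or in 20 of the 22 lists as deposited, with scores up to 0.226, and its summit lay 9 bp from the end of Tti1 and 57 bp from Rpt3R. In no library was the summit nearest to either copy. Of 14 testis marker genes, 7 had no peak at an end in any library, namely aly, can, comr, dj, nht, sa and tomb. The other 7 had one in 3 to 22 libraries: mia, bol and topi in all 22, with mean scores of 0.977, 0.837 and 0.834, achi in 20, fzo in 15, Mst87F in 10 and twe in 3. The mean score over the marker list was 0.215 to 0.272 in the 6 groups. Among these markers fzo had mean scores of 0.756 at 5 weeks and 0.502 at 1 week in w1118, and 0.0312 to 0.127 in the other groups. Its part in the values of the testis-type copies was not tested.

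Differences between groups were tested with limma on the scores of 8210 genes with a peak in at least 3 libraries, with Benjamini-Hochberg adjustment over all of them and a threshold of 0.05. Of the members, 32 entered the fit, 30 core genes and 2 testis-type copies. None passed the test in any comparison. The limit on shared peaks given above also holds for the differences below. Among the genes named for high or low differences, the summit was nearest to the member in most libraries only for Prosbeta4, Rpt1 and Rpt6. It was nearest to another gene in most libraries for Prosalpha3, Prosbeta2, Prosbeta6, Rpn3, Rpn9, Rpn12, Rpt2, Rpt4 and Rpt5.

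**Figure D4:**
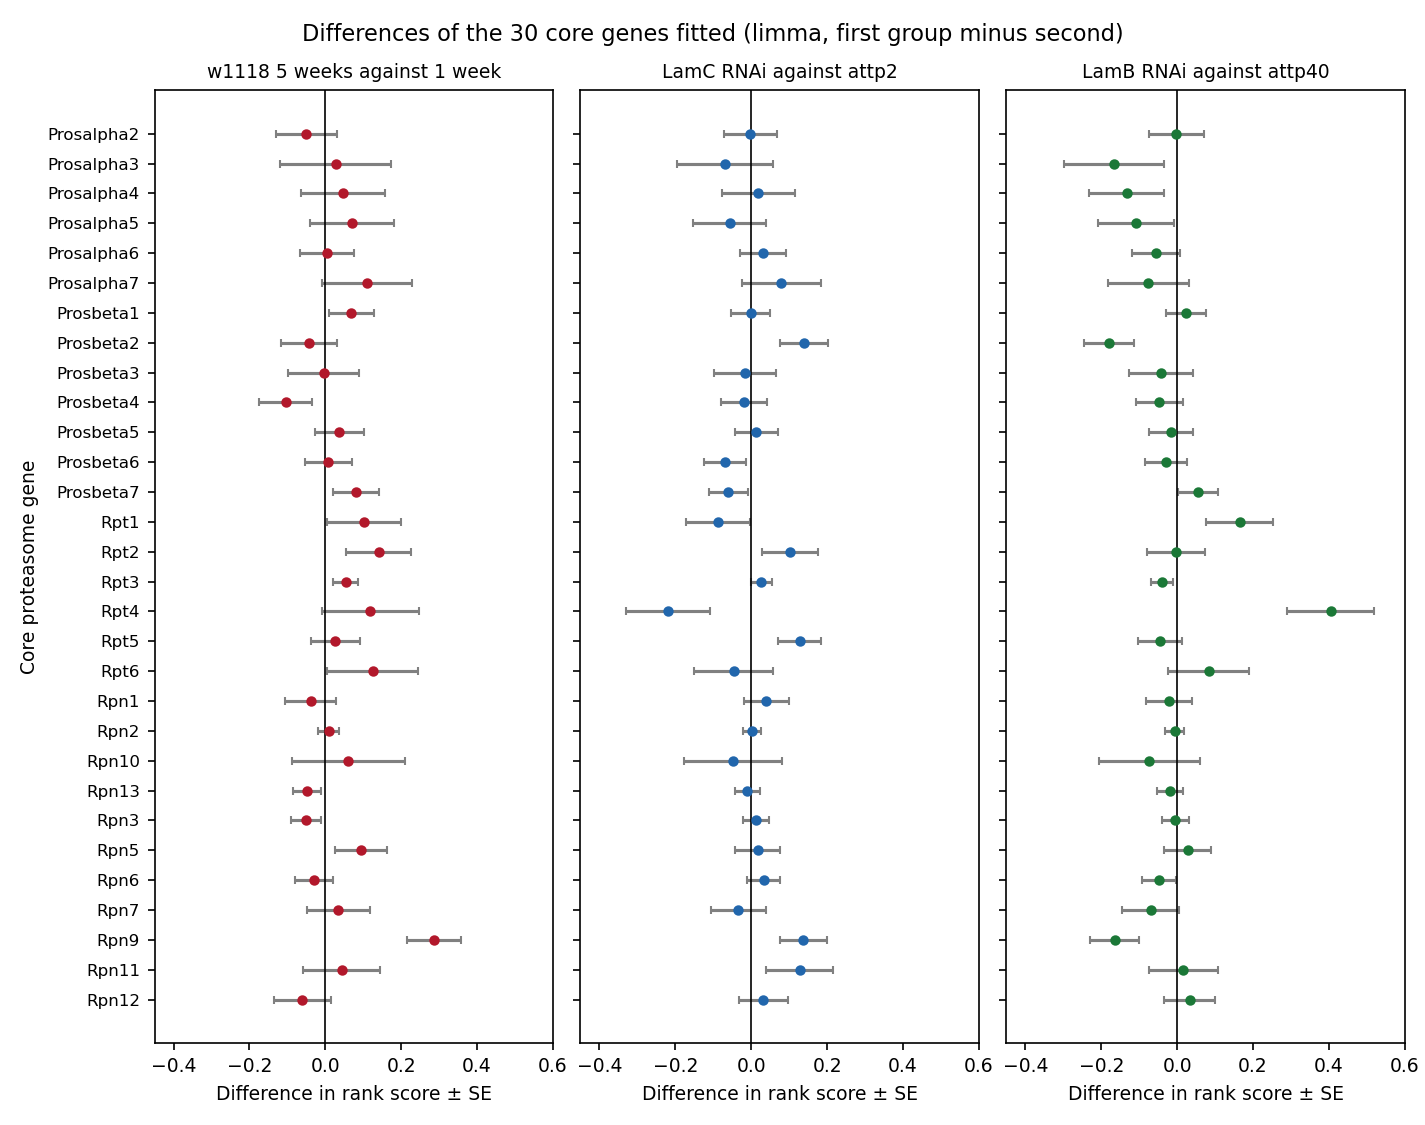
Difference in rank score (x axis, points with limma SE) for the 30 core genes fitted (y axis, grouped by subcomplex), from left to right for w1118 at 5 weeks minus 1 week, LamC RNAi minus attp2 and LamB RNAi minus attp40. No gene passed the test, and the points furthest from 0 are Rpn9 with age (0.287) and Rpt4 after LamB RNAi (0.405).

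With age, 0 of 32 members were called in w1118 hearts, where limma called 9 of 8210 genes (0.11%). At an unadjusted p under 0.05 there were 520 of the 8210 genes and 1 of the 32 members, Rpn9. Differences were above 0 for 21 of the 30 core genes (70%) and for 57.9% of all genes fitted. The median difference was 0.0354 over the core genes and 0.0104 over all genes. With each library left out in turn, 17 to 21 core genes lay above 0. All 6 Rpt ATPase genes had differences above 0, between 0.0267 and 0.140, with a median of 0.110 and none called. Differences were also above 0 for 5 of 6 alpha ring genes, 4 of 7 beta ring genes and 4 of 7 lid genes fitted. Of the 4 other base genes, 2 were above 0. In 4 core genes every 5-week library scored above every 1-week library, namely Rpn9, Rpt6, Prosbeta1 and Prosbeta7, where 6.54% of all genes fitted did so. There was no core gene with every 5-week library lower, where the share of all genes was 4.48%. Prosbeta1 averaged 0.709 ± 0.023 in 5-week hearts and 0.641 ± 0.040 in 1-week hearts, and Prosbeta7 averaged 0.794 ± 0.024 in 5-week hearts and 0.714 ± 0.038 in 1-week hearts (SD, n = 3 each).

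Rpn9, a structural subunit of the lid, had the highest difference with age. Its scores were 0.386, 0.287 and 0.426 in 5-week hearts and 0, 0.0327 and 0.206 in 1-week hearts. All 3 old libraries lay above all 3 young ones, and the third young library came closest. Means were 0.366 ± 0.072 in 5-week hearts (SD, n = 3) and 0.0797 ± 0.111 in 1-week hearts (n = 3), a difference of 0.287 ± 0.071 (limma SE) with a limma adjusted p of 0.145 (0.0838 to 1 over the alternatives run). The summit of the peak lay a median of 227 bp from an end of Rpn9 (3R, 23731375 to 23733462). In the lists as deposited, all 3 young libraries held a peak at an Rpn9 end. When peaks up to 1000 bp from an end were counted, a stronger peak set the score, with 0.735 ± 0.035 at 5 weeks and 0.741 ± 0.052 at 1 week.

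The ATPase genes Rpt2 and Rpt6 came next. Rpt2 scored 0.443, 0.362 and 0.322 at 5 weeks and 0.137, 0.164 and 0.404 at 1 week, so that the groups overlapped (difference 0.140 ± 0.085, limma adjusted p = 0.950). Rpt6 scored 0.415, 0.343 and 0.310 at 5 weeks and 0.244, 0.256 and 0.192 at 1 week (difference 0.125 ± 0.120, limma adjusted p = 1). The Rpt6 groups did not overlap, whereas the SE is shared with groups in which some libraries had no Rpt6 peak.

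At the low end with age, Prosbeta4 had no peak in the 3 libraries at 5 weeks and scored 0.248, 0.0632 and 0 at 1 week (difference −0.104 ± 0.070, limma adjusted p = 0.990). In the lists as deposited, Prosbeta4 had a peak in 2 of 3 libraries at 5 weeks and in 3 of 3 at 1 week. Rpn12, a lid subunit, scored 0.204, 0.00424 and 0.203 at 5 weeks and 0.206, 0.190 and 0.196 at 1 week. Its difference of −0.0603 ± 0.0751 rested on the second old library and was 0.00610 without it. Rpn3 scored 0.764, 0.885 and 0.729 at 5 weeks and 0.852, 0.878 and 0.801 at 1 week, again overlapping (difference −0.0513 ± 0.0401, limma adjusted p = 1). Over the pericardial nephrocyte markers, genes of the filtering cells that flank the heart, the mean score came to 0.417 ± 0.016 in 5-week hearts (SD, n = 3) and 0.549 ± 0.067 in 1-week hearts (n = 3). Of 6 such markers 5 were fitted, 4 of them below 0, and Cubn was at 0 in all libraries. Over the heart markers it was 0.519 ± 0.018 at 5 weeks and 0.562 ± 0.019 at 1 week, with 8 of 10 fitted below 0. Over the hemocyte markers it was 0.169 ± 0.012 at 5 weeks and 0.215 ± 0.0037 at 1 week, with 3 of 4 fitted below 0 and He, Pxn and eater at 0. Over the fat body markers it was 0.360 ± 0.023 at 5 weeks and 0.288 ± 0.040 at 1 week, with Fbp1 at 0. Of the 4 fat body markers fitted, every 5-week library was higher for 3 and lower for 1, Col4a1. No marker was called, and their part in these member values was not tested.

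**Figure D5:**
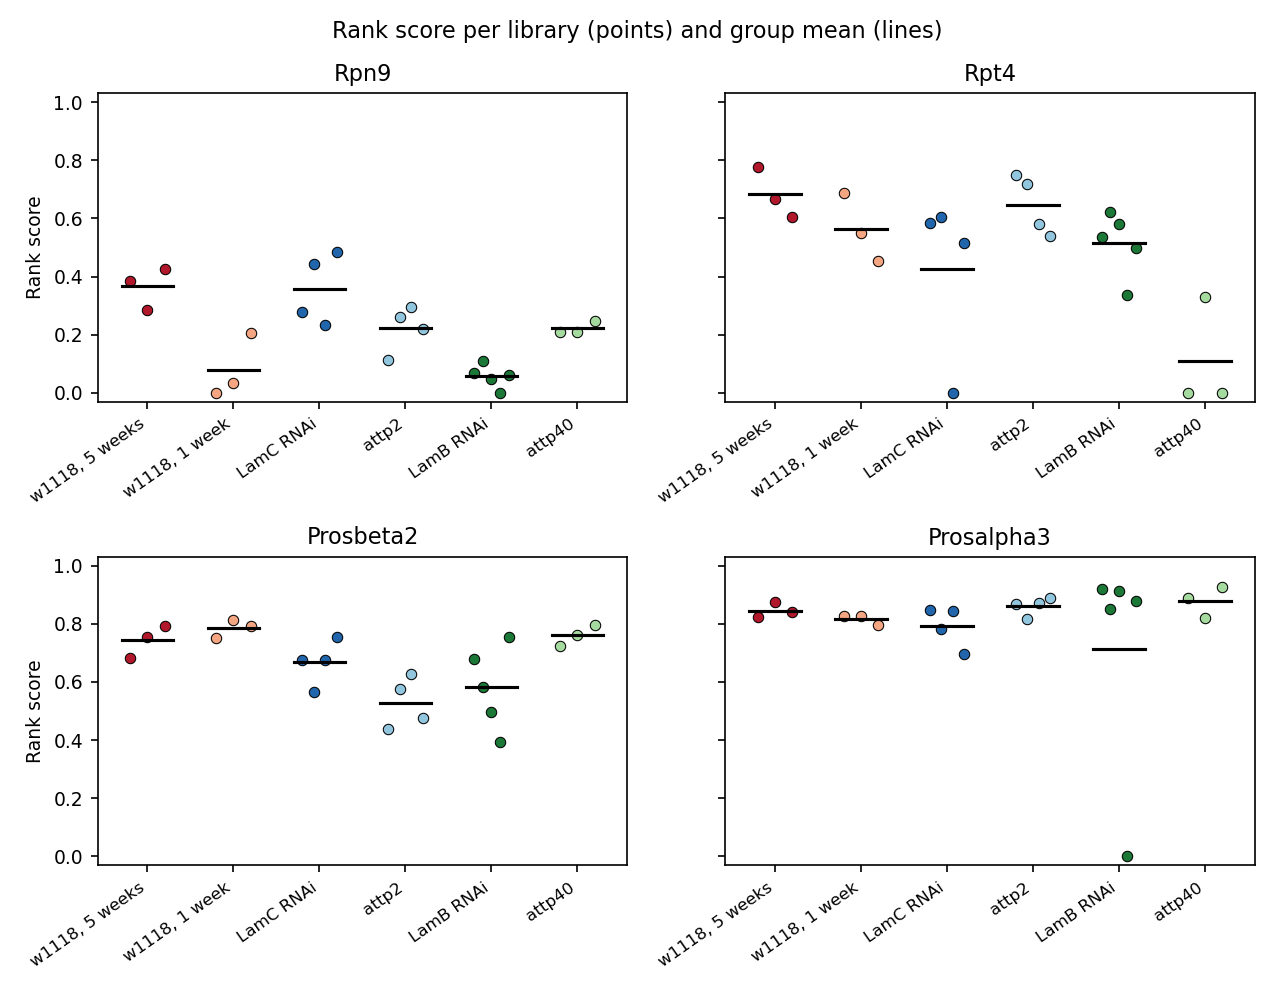
Rank scores (y axis) of Rpn9, Rpt4, Prosbeta2 and Prosalpha3 in the 22 libraries (points) with group means (lines), by group along the x axis. Rpn9 is higher in all 5-week than in all 1-week w1118 libraries and lower in all LamB RNAi than in all attp40 libraries. Rpt4 is at 0 in 2 of 3 attp40 libraries, and Prosalpha3 is at 0 in 1 LamB RNAi library.

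After LamC RNAi, 0 of 32 members were called, where limma called 5 of 8210 genes (0.0609%), and 481 genes and 3 members had an unadjusted p under 0.05. Core genes were split, with 16 of 30 above 0 (53.3%) and 58.3% of all genes fitted. The median difference was 0.0073 over the core genes and 0.0120 over all genes. With each library left out in turn, the number above 0 ran from 13 to 20. There was no core gene whose 4 LamC RNAi libraries all lay above or all below the 4 attp2 libraries. Over all genes 2% had every library higher and 0.962% every library lower.

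Prosbeta2, Rpn9 and Rpt5 had the highest differences after LamC RNAi. Prosbeta2 scored 0.675, 0.567, 0.674 and 0.754 after LamC RNAi and 0.438, 0.575, 0.626 and 0.477 in attp2. The groups overlapped by a small margin, and the difference was 0.138 ± 0.064 (limma adjusted p = 0.831). Rpn9 scored 0.278, 0.442, 0.232 and 0.484 after LamC RNAi and 0.115, 0.260, 0.294 and 0.219 in attp2. Its difference of 0.137 ± 0.062 (limma adjusted p = 0.831) was −0.0020 when peaks up to 1000 bp from an end were counted. Rpt5 scored 0.752, 0.660, 0.668 and 0.739 after LamC RNAi and 0.709, 0.519, 0.521 and 0.558 in attp2, with a difference of 0.128 ± 0.057 and the same adjusted p. The first attp2 library lay among the LamC RNAi ones.

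Rpt4, Rpt1 and Prosbeta6 had the lowest differences after LamC RNAi. Rpt4 scored 0.585, 0.606, 0 and 0.517 after LamC RNAi and 0.748, 0.719, 0.582 and 0.539 in attp2. The difference of −0.220 ± 0.111 (limma adjusted p = 0.850) rested largely on the third RNAi library and was −0.0779 ± 0.0883 without it. Rpt1 scored 0.632, 0.528, 0.507 and 0.648 after LamC RNAi and 0.594, 0.770, 0.606 and 0.694 in attp2 (difference −0.0872 ± 0.0849, limma adjusted p = 0.950). Prosbeta6 scored 0.589, 0.651, 0.608 and 0.468 after LamC RNAi and 0.687, 0.569, 0.680 and 0.656 in attp2 (difference −0.0690 ± 0.0541, limma adjusted p = 0.935). In both the groups overlapped. The nephrocyte markers averaged 0.433 ± 0.049 after LamC RNAi (SD, n = 4) and 0.407 ± 0.0045 in attp2 (n = 4), and 3 of 5 fitted were above 0. The heart markers averaged 0.504 ± 0.021 after LamC RNAi and 0.542 ± 0.035 in attp2, with 9 of 10 fitted below 0 and a median difference of −0.0376. The hemocyte markers averaged 0.194 ± 0.025 after LamC RNAi and 0.202 ± 0.019 in attp2, and the fat body markers 0.328 ± 0.059 after LamC RNAi and 0.348 ± 0.053 in attp2. No marker was called, and their part in the member values was not tested.

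After LamB RNAi, 0 of 32 members were called, and limma called 0 of 8210 genes (0%), with 372 genes and 3 members at an unadjusted p under 0.05. Differences were below 0 for 22 of the 30 core genes, leaving 8 above (26.7%), against 41.4% of all genes fitted above 0. The median difference was −0.0258 over the core genes and −0.0081 over all genes. This direction rested on LamB RNAi replicate 4. Without it, 15 core genes lay above 0 and 15 below, with a median of −0.00033, and 51.8% of all genes lay above 0. Without attp40 replicate 2, 12 lay above and 18 below, and without attp40 replicate 3, the library with the other date, 7 lay above and 23 below. The nephrocyte markers averaged 0.452 ± 0.051 after LamB RNAi (SD, n = 5) and 0.520 ± 0.014 in attp40 (n = 3), with 4 of 5 fitted below 0. The heart markers averaged 0.522 ± 0.017 after LamB RNAi and 0.557 ± 0.0064 in attp40, with 7 of 10 fitted below 0 and a lowest limma adjusted p of 0.0909. The hemocyte markers averaged 0.197 ± 0.016 after LamB RNAi and 0.245 ± 0.0049 in attp40, with all 4 fitted below 0. The fat body markers averaged 0.409 ± 0.054 after LamB RNAi and 0.401 ± 0.084 in attp40, with 3 of 4 fitted above 0. The part of these markers in the core values was not tested.

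Rpt4 had the highest difference after LamB RNAi. Its scores were 0.538, 0.622, 0.581, 0.337 and 0.498 after LamB RNAi and 0, 0.331 and 0 in attp40. All 5 RNAi libraries lay above all 3 controls, which 0.828% of all genes fitted did, and the lowest RNAi library was close to the one control with a peak. The control libraries without a peak at Rpt4 had none there in the lists as deposited either, and their nearest peaks were 1109 and 1163 bp away. Means were 0.515 ± 0.110 (SD, n = 5) after LamB RNAi and 0.110 ± 0.191 (n = 3) in attp40, a difference of 0.405 ± 0.114 with a limma adjusted p of 0.386. It was 0.350 without attp40 replicate 1 or without attp40 replicate 3, 0.449 without LamB RNAi replicate 4, and 0.0965 with lists of 4245 peaks. Rpt4 scored 0.427 to 0.683 on average in the other 4 groups, so the attp40 mean was the lowest of the 6.

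The other high and low members after LamB RNAi mostly turned on single libraries. Rpt1 scored 0.454, 0.505, 0.563, 0.478 and 0.554 after LamB RNAi and 0.451, 0.589 and 0 in attp40. Its difference of 0.164 ± 0.088 (limma adjusted p = 1) was −0.0087 without attp40 replicate 3. Rpt6 scored 0.400, 0.452, 0.0243, 0.191 and 0.381 after LamB RNAi and 0.265, 0.355 and 0 in attp40. Its difference of 0.0829 ± 0.107 (limma adjusted p = 1) was −0.0204 without the same library. Prosalpha3 scored 0.920, 0.851, 0.913, 0 and 0.877 after LamB RNAi and 0.891, 0.820 and 0.925 in attp40, a difference of −0.166 ± 0.131. Without LamB RNAi replicate 4, where the peak lay just outside the limit, the Prosalpha3 difference was 0.0120 ± 0.0321.

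Prosbeta2 and Rpn9 had the other low differences after LamB RNAi. Prosbeta2 scored 0.679, 0.582, 0.497, 0.393 and 0.755 after LamB RNAi and 0.722, 0.763 and 0.796 in attp40. Here 4 of the 5 RNAi libraries lay below all controls, and the difference was −0.179 ± 0.066 (limma adjusted p = 0.954), or −0.132 ± 0.059 without LamB RNAi replicate 4. Rpn9 scored 0.0678, 0.110, 0.0471, 0 and 0.0624 after LamB RNAi and 0.211, 0.209 and 0.248 in attp40. All 5 RNAi libraries lay below all 3 controls, as they did for Rpt3, where 1.92% of all genes fitted did so. The Rpn9 difference was −0.165 ± 0.064 (limma adjusted p = 0.954) and 0.0298 when peaks up to 1000 bp from an end were counted. Rpt3 averaged 0.818 ± 0.033 (SD, n = 5) after LamB RNAi and 0.859 ± 0.011 (n = 3) in attp40, with a limma adjusted p of 1.

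Whether a lamin knockdown moved a member otherwise than age did was tested as a contrast of the 2 changes in the same fit. For LamC RNAi, 0 of 32 members were called, where limma called 5 of 8210 genes (0.0609%), and 370 genes and no member had an unadjusted p under 0.05. For LamB RNAi, 0 of 32 members were called, where limma called 2 genes (0.0244%), and 336 genes and 2 members, Rpn9 and Rpt3, had an unadjusted p under 0.05. The lowest p among members was that of Rpn9, with a difference of −0.452 ± 0.095 between its LamB RNAi change and its age change and a limma adjusted p of 0.116. Counted to 1000 bp, the changes of Rpn9 were −0.0059 with age and 0.0298 after LamB RNAi.

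Prosbeta2R2 differed by 0.0440 ± 0.0370 with age, by 0.0084 ± 0.0321 after LamC RNAi and by 0.0109 ± 0.0331 after LamB RNAi. Rpt3R had a peak in all 3 libraries at 5 weeks, with scores of 0.147, 0.176 and 0.194, and scored 0.0013, 0 and 0.201 at 1 week. That difference was 0.105 ± 0.070 (limma adjusted p = 0.990).

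Genes that regulate or assist the proteasome were open as well. Of the 22 listed, 21 were found in the gene table, all of these had an end peak in at least 21 libraries, and 18 had one in all 22. The strongest were Ubi-p5E, a polyubiquitin gene, with a mean score of 0.984, Ubqn, a ubiquitin shuttle, with 0.964, and Pomp, the assembly chaperone of the core particle, with 0.960. The transcription factor cnc, whose mammalian relative Nrf1 induces proteasome genes, averaged 0.952, its partner maf-S 0.429 and its inhibitor Keap1 0.784. Uba1, the ubiquitin-activating enzyme, and TER94, the segregase that extracts ubiquitinated proteins, averaged 0.924 and 0.945. The weakest was Pngl, with 0.301. None of the 21 was called in any comparison. Differences were above 0 for 13 of 21 with age (median 0.0196), for 16 after LamC RNAi (median 0.0186) and for 9 after LamB RNAi (median −0.0064). Without LamB RNAi replicate 4 the last were 12 of 21 (median 0.0069). The 8 genes of the COP9 signalosome, a complex related to the lid, had an end peak in 7 or 8 members per library, and none was called.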

How the data were processed

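Bulk ATAC-seq of fly hearts was deposited as 22 narrowPeak lists, 1 per library, of 8491 to 12395 peaks. The tools named in the submitters' processing notes are MACS2, Picard, SAMtools and Bowtie2, and the build is dm6. Versions, settings and any read shift are not stated. The deposited lists hold, per peak, the authors' score (column 5), a fold enrichment over local background, which is a ratio, and −log10 p and −log10 q values. Each value is relative to its own library, and depth is unknown, so no counting interval can be given.

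Lists were limited to the 8491 strongest peaks by −log10 p, and ranks were scaled from 1 to 0 as described above. Gene spans came from the RefSeq annotation of the Release 6 assembly, which holds no strand. Promoter and protein sequences and motifs were not used here. Scores were fitted with limma 3.58.1 in R 4.3.3, with a trend and 1 spread over all 6 groups, after a test on simulated data. Python 3.11.15, numpy 2.4.6 and pandas 2.3.3 were used.

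Any member could be named with its level. Differences are given for the 3 core genes highest and the 3 lowest in each comparison. Neighbouring genes, and members whose groups did not overlap, were named after their values were seen. The members and lists were chosen with earlier results of these data known.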

Additional observations from a re-analysis of the deposited data

Results flagged for a closer look

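Of 24 groups of 4 or 5 libraries examined, 3 held a library far from the others. The values examined were the share and median score of the core genes and the scores of the named genes. The rule used flags about 1 in 20 by chance. That rate does not apply to the named genes, which were picked for high or low differences, since a score of 0 in 1 library can make one. In LamB RNAi replicate 4, 81.25% of the core genes had a peak at an end, against 90.6% to 93.8% in the other 4 LamB RNAi libraries. In the same library Prosalpha3 scored 0, against 0.851 to 0.920 in the other LamB RNAi libraries. Its peak there had a rank score of 0.797 and lay 535 bp from the gene, just past the 500 bp limit. In LamC RNAi replicate 3, Rpt4 scored 0, against 0.517 to 0.606 in the other 3 LamC RNAi libraries. The nearest peak of that library was 1126 bp from Rpt4.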

How the results depend on the processing

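No member was called in any of the 5 contrasts under any alternative run, the leave-one-out fits included. The number of genes called depended on the settings. With age, limma called 4 genes with lists of 4245 peaks, 17 with all deposited peaks, 4 with a 1000 bp limit, 5 when a peak in at least 6 libraries was required, 27 with library weights and 130 merged regions, against 9 reported. For LamC RNAi it called 2 with ranks by fold, 3 with all deposited peaks, 0 with a 250 bp limit, 1 when the summit had to lie within 500 bp, 0 with the libraries of the comparison alone and 15 merged regions, against 5. For LamB RNAi it called 2 with ranks by fold, 4 with lists of 4245 peaks, 3 when 1 library sufficed, 2 when 6 were required, 8 with weights and 18 merged regions, against 0. Leaving out 1 library gave 3 to 13 genes with age, 1 to 6 for LamC RNAi and 0 to 4 for LamB RNAi. A fit of the libraries of a comparison alone called 12 genes with age, 0 for LamC RNAi and 0 for LamB RNAi, and adding the replicate number as a block to that fit called 0 in each. With the block, 612 genes and 5 of 32 members had an unadjusted limma p under 0.05 with age, against 520 and 1 in the main fit. Members at that level were 1 for LamC RNAi and 2 for LamB RNAi, against 3 and 3 in the main fit. Same-numbered libraries correlated, in their deviations from the group means, at 0.0897 to 0.189 with age and 0.0880 to 0.151 for LamB RNAi. For LamC RNAi they correlated at −0.173 to 0.0516. Different-numbered libraries gave −0.164 to 0.0456 with age, −0.145 to 0.137 for LamB RNAi and −0.069 to 0.127 for LamC RNAi. The main fit did not pair them, and whether same-numbered libraries share a batch was not tested. The causes were not tested. Of 357 values of the 18 named differences, 347 kept their sign and none passed the threshold, with a lowest adjusted p of 0.0838, for Rpn9 with age. The 10 that turned were Rpn9 at 1000 bp (−0.0059 with age, −0.0020 for LamC RNAi, 0.0298 for LamB RNAi), Rpn12 with age without 5-week replicate 2 (0.0061; leaving out 1 library gave −0.0936 to 0.0061), Rpt1 for LamB RNAi with lists of 4245 peaks (−0.0103) and without attp40 replicate 3 (−0.0087; −0.0087 to 0.286), Rpt6 without that library (−0.0204; −0.0204 to 0.157), and Prosalpha3 for LamB RNAi at 250 bp (0.359), with the replicate block (0.0164) and without LamB RNAi replicate 4 (0.0120; −0.218 to 0.0120). The share of core genes with a peak was 51.2% to 66.7% per group in lists of 4245 peaks and 78.1% to 93.8% under the other settings. The planned restriction to gene starts needs strand and was not run. Leaving out LamB RNAi replicate 4 or attp40 replicate 3 for levels, ranges and directions was chosen after seeing the data. Weak peaks such as those of Prosbeta4, Rpn12 and Rpt3R lie near the end of the limited lists, and the depth that would set their precision is unknown.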
